A study of Sus scrofa with 4 samples.

Results

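The miR-17-92 cluster, its 2 paralogous clusters and the related miR-92b were followed in the hippocampus of Rongchang piglets. Members were all rows of the authors' table of annotated pig miRNAs named miR-17, miR-18a, miR-18b, miR-19a, miR-19b, miR-20a, miR-20b, miR-92a, miR-92b, miR-106a, miR-106b, miR-93, miR-25 or miR-363, either arm. This gave 13 of 321 annotated miRNAs. Of these, 5 belong to the 17-92 cluster (miR-17-5p, miR-17-3p, miR-18a, miR-19a and miR-20a) and 4 to the miR-106a-363 cluster (miR-106a, miR-18b, miR-20b and miR-363). The other members are miR-19b and miR-92a, which both clusters encode, and the 2 arms of miR-92b. The table held no row for the miR-106b-25 cluster, whose members were read from the authors' table of conserved miRNA sequences.

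The study compared 4 small RNA libraries, 1 each of iron dorsal, control dorsal, iron ventral and control ventral hippocampus. All piglets were purebred littermates of the breed, with the genotype given as wide type, 8 in all (4 females and 4 males). The 4 iron piglets were given intramuscular iron dextran, an iron preparation bound to a sugar polymer (200 mg, days 3 and 4), to induce oxidative stress, and the injection of the 4 control piglets is given as none. The sources used here do not give their age when the tissue was taken. Tissue of a group was mixed, so each library is a pool with no replicate, and variation among animals is unknown. All ratios below therefore compare libraries, not conditions.

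The libraries held 11396809 annotated miRNA reads (iron dorsal), 12100980 (control dorsal), 12299691 (iron ventral) and 13839556 (control ventral). Levels are CPM, reads as a share of the library on a common scale, after TMM scaling. Ratios carry exact 95% counting intervals, and a miRNA was counted as higher or lower when it differed at least 1.5-fold with an interval that excluded 1. Of the 321 miRNAs, 251 reached 10 CPM in at least 1 library, and all 13 members did. The neuronal markers miR-9, miR-124a, miR-128, miR-129 and miR-138 were all present and summed to between 232945 and 258171 CPM.

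The 17-92 cluster is transcribed as 1 primary RNA that is cut into several miRNAs, and in mammals it is known as a target of the MYC and E2F transcription factors that favours proliferation and survival. The miR-17 type is known to repress the cell cycle inhibitor CDKN1A. In the rodent brain the cluster is known for a part in neural progenitor expansion and in neurogenesis of the adult hippocampus. The miR-106b-25 cluster lies in an intron of MCM7, a replication gene, in human and mouse. In the RefSeq annotation of pig assembly Sscrofa 11.1, MIR17, MIR18A, MIR19A, MIR20A, MIR19B-1 and MIR92A-1 follow each other in this order. MIR106A, MIR18B, MIR20B-1, MIR19B-2, MIR92A-2 and MIR363-1 are likewise neighbours on another chromosome.

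A miRNA finds its targets mainly through its seed, bases 2 to 8, so members are grouped by seed. The sequences come from the deposited conserved table, from rows whose species list includes pig, and are shown because the near-identity of members limits how well their reads can be told apart. Capitals mark the seed. The miR-17 type shares the seed AAAGUGC.
miR-17-5p: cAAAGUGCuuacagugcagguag
miR-20a: uAAAGUGCuuauagugcaggua
miR-106a: aAAAGUGCuuacagugcagguagc
miR-20b: cAAAGUGCucacagugcagguag
Counted from the 5′ end, miR-106a differs from miR-17-5p within the compared bases by C1A, miR-20b by U10C, and miR-20a by C1U and C12U.

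The miR-18 type differs from the miR-17 type in its seed, AAGGUGC, and its 2 members differ from each other by A20U.
miR-18a: uAAGGUGCaucuagugcagaua
miR-18b: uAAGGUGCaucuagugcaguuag
The miR-19 type has the seed GUGCAAA, and miR-19b differs from miR-19a by U11C.
miR-19a: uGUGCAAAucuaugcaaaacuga
miR-19b: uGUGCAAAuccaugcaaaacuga
The miR-92 type has the seed AUUGCAC. From miR-92a, miR-92b-3p differs by U10C, G21C and U22C, whereas miR-363 shares little with it beyond the seed.
miR-92a: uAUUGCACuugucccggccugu
miR-92b-3p: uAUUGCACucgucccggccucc
miR-363: aAUUGCACgguauccaucuguaa
The authors' counting could split reads between members of 1 type, most of all between miR-17-5p and miR-106a and between miR-18a and miR-18b. Sums over a seed type are less affected.

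The family was a moderate part of the hippocampal miRNAs. Its 13 members together held 1.32% of all annotated reads in iron dorsal compared with 1.45% in control dorsal, and 1.52% in iron ventral against 1.56% in control ventral. Its most abundant member was miR-92b-3p, with 3429 CPM in iron dorsal against 3384 in control dorsal, and 3529 in iron ventral against 3339 in control ventral. It held place 39 or 40 of all annotated miRNAs in every library, and its highest level was only 1.06 times its lowest.

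Next came 5 members between 1452 and 2703 CPM. Among them miR-17-5p was above miR-92a and miR-20a without overlap, whereas its range overlapped those of miR-19b and miR-363, and the other neighbours in the order overlapped too. miR-17-5p, the leading member of the miR-17 type, had 2221 CPM in iron dorsal against 2353 in control dorsal, and 2703 in iron ventral against 2383 in control ventral. miR-19b had 1732 CPM in iron dorsal against 2317 in control dorsal, and 2449.9 in iron ventral against 2249.7 in control ventral. The iron dorsal library is the low one for both.

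The levels of miR-363, the last miRNA of its cluster, were 2627 CPM in iron dorsal against 1531 in control dorsal, and 1966 in iron ventral against 2174 in control ventral. Iron dorsal was the highest and control dorsal the lowest of its 4 values, and its place among annotated miRNAs was 48 in iron dorsal against 68 in control dorsal. miR-92a had 1640.4 CPM in iron dorsal against 1829 in control dorsal, and 1872 in iron ventral against 2164 in control ventral. miR-20a had 1771 CPM in iron dorsal against 1659 in control dorsal, and 1760.0 in iron ventral against 1452 in control ventral. These 6 members stood apart from the rest, none of which passed 319 CPM in any library.

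The middle group held miR-20b, miR-19a, miR-106a and miR-18a. miR-20b was the steadiest of them, with 298 CPM in iron dorsal against 298 in control dorsal, and 288 in iron ventral against 298 in control ventral. miR-19a had 189 CPM in iron dorsal against 319 in control dorsal, and 313 in iron ventral against 312 in control ventral, so that iron dorsal alone was low. miR-106a had 202 CPM in iron dorsal against 182 in control dorsal, and 169 in iron ventral against 183 in control ventral. For miR-18a the levels were 97.3 CPM in iron dorsal against 151 in control dorsal, and 153 in iron ventral against 169 in control ventral, again with iron dorsal as the low value.

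The lowest 3 members lay near the limit of 10 CPM. miR-17-3p, the passenger arm of miR-17, had 20.02 CPM in iron dorsal against 18.6 in control dorsal, and 26.0 in iron ventral against 25.2 in control ventral. miR-92b-5p had 11.3 CPM in iron dorsal against 15.1 in control dorsal, and 11.8 in iron ventral against 13.2 in control ventral. miR-18b had 9.20 CPM in iron dorsal against 13.96 in control dorsal, and 11.6 in iron ventral against 13.0 in control ventral. The ranges of miR-92b-5p and miR-18b overlapped, whereas miR-17-3p was above both in every library.

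**Figure D1:**
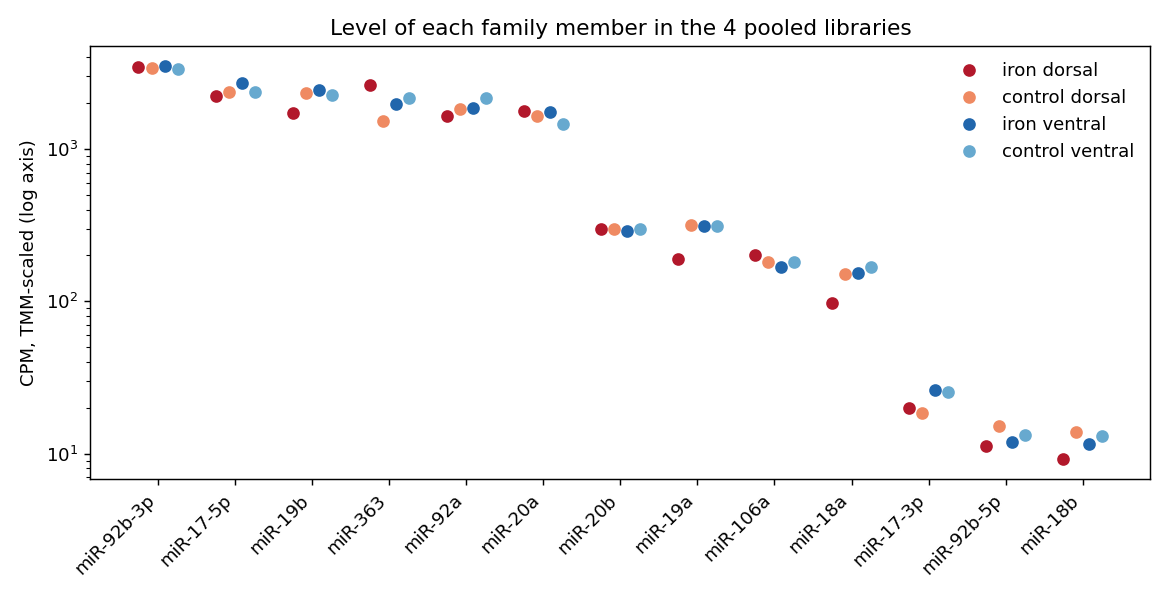
Level of each of the 13 members (horizontal axis, ordered by mean) in TMM-scaled CPM on a log axis, 1 point per pooled library. The 6 abundant members lie between 1452 and 3529 CPM, and for miR-19a and miR-18a the iron dorsal point (189 and 97.3 CPM) lies below the other 3.

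Levels of miRNAs from 1 primary transcript were far from equal. Within the 17-92 cluster miR-17-5p exceeded its own passenger arm miR-17-3p 111 times in iron dorsal against 126 times in control dorsal, and 104 times in iron ventral against 94.4 times in control ventral. The ratio of miR-20a to miR-17-5p was 0.797 in iron dorsal against 0.705 in control dorsal, and 0.651 in iron ventral against 0.609 in control ventral. miR-18a reached only 0.0438 of the level of miR-17-5p in iron dorsal against 0.0642 in control dorsal, and 0.0567 in iron ventral against 0.0708 in control ventral.

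Levels were unequal in the miR-106a-363 cluster too. In it miR-363 exceeded miR-106a 13.0 times in iron dorsal against 8.39 times in control dorsal, and 11.6 times in iron ventral against 11.9 times in control ventral. Efficiency of ligation and amplification differs between miRNA sequences, so such ratios describe reads and not molecules per cell.

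The first comparison, iron dorsal against control dorsal, addresses how the family differs in this region after the injections. The sum of the 13 members was nearly the same, with 14246 CPM in iron dorsal and 14070 CPM in control dorsal, a ratio of 1.01 (1.01 to 1.02). Its makeup differed: miR-363 was higher in the iron library, and miR-19a, miR-18a and miR-18b were lower. Across all 251 miRNAs measured, 5.18% were higher and 5.18% lower at this threshold, which is 13 in each direction. With total reads in place of TMM the split of all calls was 5 higher and 26 lower, while the calls among members were the same 4.

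miR-363 was 1.72-fold higher in iron dorsal than in control dorsal (1.69 to 1.75), the fourth-highest ratio of the 251. miR-19a, at 189 CPM in iron dorsal against 319 CPM in control dorsal, was 1.69-fold lower (1.60 to 1.78). miR-18a was 1.55-fold lower (1.44 to 1.68). miR-18b was 1.52-fold lower (1.18 to 1.97), on 97 reads in iron dorsal and 174 in control dorsal, and stands close to the threshold. The other miR-19 member, miR-19b, was 1.34-fold lower (1.31 to 1.36) and so was not counted.

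miR-92b-5p was likewise 1.34-fold lower, with a wider interval (1.06 to 1.70). The remaining members differed less. The log2 ratio of iron dorsal over control dorsal was 0.02 for miR-92b-3p, 0.00 for miR-20b, -0.08 for miR-17-5p, 0.09 for miR-20a, 0.14 for miR-106a and -0.16 for miR-92a. The median log2 ratio over the members was -0.08, beside 0.01 over all 251 miRNAs. Total-read scaling moved the median of all miRNAs to -0.15, and the signs of miR-92b-3p, miR-20a, miR-106a, miR-17-3p and of the sum of members turned with it. The directions given for miR-363, miR-19a, miR-19b, miR-18a and miR-18b were the same under all 5 scalings tried.

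By seed and with TMM scaling, the miR-17 type was level, with 4491 CPM in iron dorsal and 4493 CPM in control dorsal, a ratio of 0.9996 (0.987 to 1.01). The miR-18 type had 107 CPM in iron dorsal and 165 CPM in control dorsal, 1.55-fold lower (1.44 to 1.67). The miR-19 type had 1920.3 CPM in iron dorsal and 2635 CPM in control dorsal, 1.37-fold lower (1.35 to 1.40). For the miR-92 type the sum was 7697 CPM in iron dorsal and 6744 CPM in control dorsal. Without miR-363 it was 5069.6 CPM in iron dorsal and 5213 CPM in control dorsal, a ratio of 0.972 (0.961 to 0.984). So the higher level of the miR-92 type lay in miR-363, and the members of 1 seed type did not all differ alike. These sums depend on the scaling. With total reads the log2 ratio was -0.16 for the miR-17 type, -0.79 for the miR-18 type and 0.04 for the miR-92 type. For the miR-19 type it was -0.61, then past the threshold.

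By cluster, the 4 members specific to miR-106a-363 summed to 3136 CPM in iron dorsal and 2025 CPM in control dorsal, 1.55-fold higher (1.52 to 1.57). Of these, miR-106a and miR-20b differed little and miR-18b was lower, so the sum follows miR-363. The log2 ratio of this sum was 0.63 with TMM and 0.60 with DESeq2 size factors. With total reads it was 0.48, by the authors' RPM 0.49 and with total reads without miR-9 0.455, all under 1.5-fold. The 5 members specific to 17-92 summed to 4298 CPM in iron dorsal and 4500.04 CPM in control dorsal, a ratio of 0.955 (0.943 to 0.967). The 2 members shared by both clusters summed to 3372 CPM in iron dorsal and 4146 CPM in control dorsal, a ratio of 0.813 (0.802 to 0.824).

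**Figure D2:**
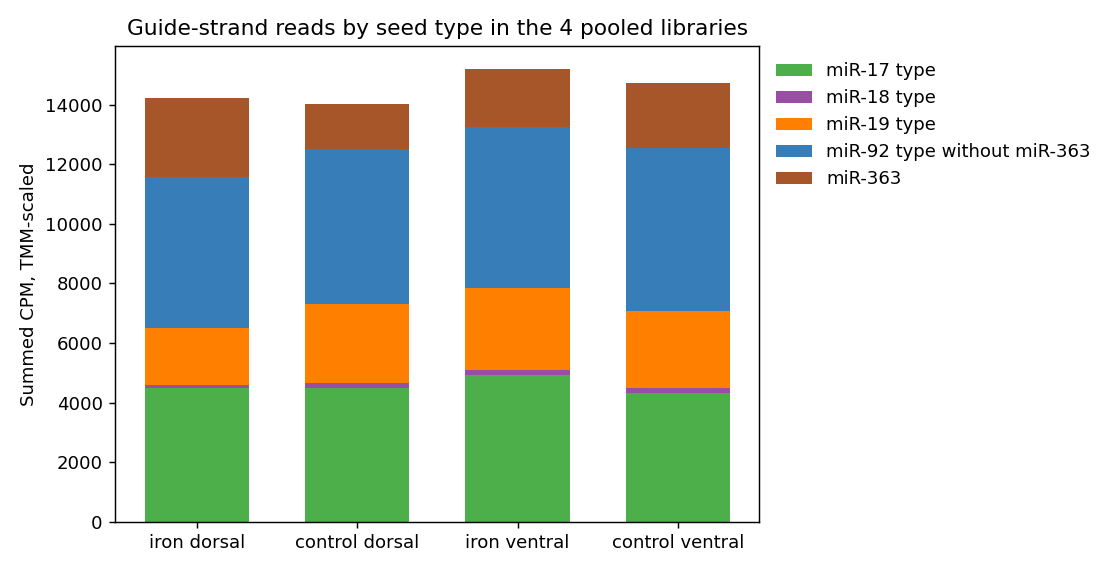
Stacked TMM-scaled CPM of the guide-strand members by seed type (miR-363 shown apart from the rest of the miR-92 type), 1 bar per pooled library. In iron dorsal the miR-19 block is smaller (1920.3 CPM, against 2635 CPM in control dorsal) and the miR-363 block larger (2627 CPM, against 1531 CPM in control dorsal), while the miR-17 blocks of these libraries are level.

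Some markers of other cell types also differed between the dorsal libraries. The oligodendrocyte markers miR-219 and miR-338 summed to 8901 CPM in iron dorsal and 11386 CPM in control dorsal. miR-34c, known from ciliated cells and here also in the list of cell cycle miRNAs, had 4236 CPM in iron dorsal and 6839 CPM in control dorsal. Of the 5 immune rows measured, 1 was lower at the threshold, miR-142-3p, and miR-223 has no row. The epithelial miR-96-5p was lower as well, at a ratio of 0.540 (0.419 to 0.692). The 3 astrocyte markers were all above 0 on the log2 scale (median 0.41), none past the threshold, and summed to 37461 CPM in iron dorsal and 34942 CPM in control dorsal. The 7 neuronal rows had a median of -0.24, with 2 above 0 and none past the threshold. Vessel markers summed to 19061 CPM in iron dorsal and 21714 CPM in control dorsal. Red blood cell markers summed to 869.7 CPM in iron dorsal and 829 CPM in control dorsal. The part of these differences in the values of the family was not tested, and fewer cells of a type cannot be told apart from less RNA per cell.

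The second comparison, iron ventral against control ventral, addresses the same question there. No member was counted as higher or lower in ventral hippocampus. Among all 251 miRNAs, 1.59% were higher and 3.59% lower (4 and 9 miRNAs, or 3 and 14 with total reads). The 13 members summed to 15252 CPM in iron ventral and 14774 CPM in control ventral, a ratio of 1.03 (1.03 to 1.04) that was below 1 with total reads (log2 -0.04).

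The member log2 ratios ran from -0.21 for miR-92a to 0.28 for miR-20a. Their median was -0.05, beside 0.02 over all miRNAs. miR-20a, at 1760.0 CPM in iron ventral and 1452 CPM in control ventral, was 1.21-fold higher (1.19 to 1.24), and miR-17-5p was 1.13-fold higher (1.12 to 1.15). The miR-17 type therefore summed to 4921 CPM in iron ventral and 4315 CPM in control ventral, a ratio of 1.14 (1.13 to 1.15). miR-363 had a ratio of 0.904 (0.889 to 0.919) and miR-19a one of 1.003 (0.960 to 1.05). In these ventral libraries the epithelial markers that have a row summed to 128 CPM in iron ventral and 454 CPM in control ventral. All 3 measured ones (miR-183, miR-96-5p and miR-182) were lower. The neuronal miR-129a-3p was lower too (ratio 0.606), while 5 of the 7 neuronal rows were above 0 on the log2 scale. Oligodendrocyte markers summed to 13999 CPM in iron ventral and 10198 CPM in control ventral, none past the threshold. The part of these markers in the values of the family was not tested.

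**Figure D3:**
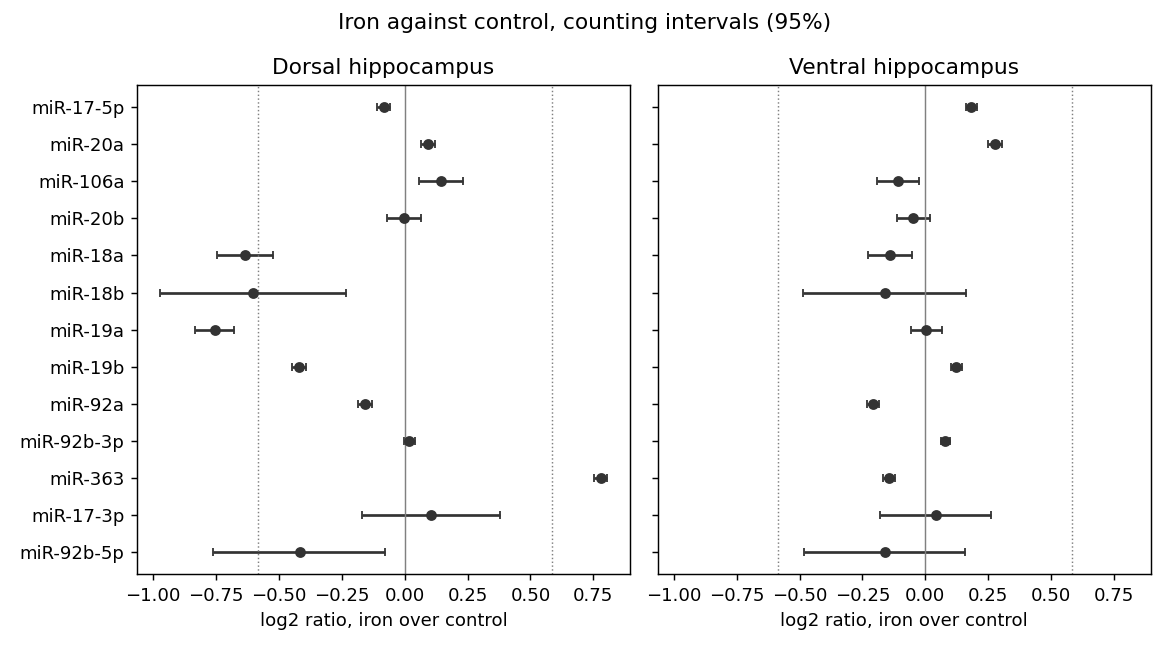
Log2 ratio of iron over control for the 13 members, dorsal (left) and ventral (right), with 95% counting intervals as bars; dotted lines mark 1.5-fold. In dorsal, miR-363 lies beyond the upper line (0.78) and miR-19a, miR-18a and miR-18b beyond the lower one (-0.75, -0.63 and -0.60), whereas all ventral points lie between -0.21 and 0.28.

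Dorsal against ventral hippocampus asks how the family differs along the long axis of the structure, and was read within each treatment. In the control piglets no member was counted, beside 3.19% higher and 3.59% lower of all miRNAs (8 and 9, or 5 and 9 with total reads). miR-363, at 1531 CPM in control dorsal and 2174 CPM in control ventral, came nearest with a ratio of 0.704 (0.691 to 0.717). miR-17-3p, at 18.6 CPM in control dorsal and 25.2 CPM in control ventral, had a ratio of 0.738 (0.623 to 0.872). Here too the control ventral library was high in the epithelial markers, with 152 CPM in control dorsal against 454 CPM in control ventral. The vessel markers miR-143-3p (ratio 1.52) and miR-143-5p (1.51) and the neuronal miR-128 (1.502) were higher in control dorsal, and the red blood cell marker miR-144 (0.596) was lower. Only 3 of the 7 neuronal rows were above 0 on the log2 scale (median -0.003). The neuronal markers summed to 237231 CPM in control dorsal against 258171 CPM in control ventral. The part of these markers in the values of the family was not tested. The other 11 members lay between -0.24 (miR-92a) and 0.19 (miR-20a) on the log2 scale.

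In the iron piglets miR-19a and miR-18a were counted as lower in dorsal than in ventral, and no member as higher. The background was 2.39% higher and 5.58% lower (6 and 14 miRNAs, or 3 and 20 with total reads). miR-19a, at 189 CPM in iron dorsal and 313 CPM in iron ventral, was 1.66-fold lower (1.57 to 1.75). miR-18a, at 97.3 CPM in iron dorsal and 153 CPM in iron ventral, was 1.58-fold lower (1.46 to 1.70). miR-19b had a ratio of 0.707 (0.694 to 0.720), and miR-363 one of 1.34 (1.31 to 1.36). This comparison and the dorsal iron comparison share the iron dorsal library, so the low values of miR-19a and miR-18a in both rest on that 1 library. In the same comparison the oligodendrocyte markers were lower too, with 8901 CPM in iron dorsal and 13999 CPM in iron ventral. miR-142-3p was lower at a ratio of 0.630 and miR-34c at 0.599. The 5 immune rows, miR-142-3p among them, had a median log2 ratio of -0.002, with 2 above 0. The 7 neuronal rows had a median of -0.30, with 1 above 0 and none past the threshold. The 3 astrocyte markers were all above 0 (median 0.15), none past the threshold. The part of these markers in the values of the family was not tested.

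With region and treatment in 1 additive model over the 4 libraries, edgeR's quasi-likelihood test called no member for iron at an adjusted p of 0.05. The lowest adjusted p among members was 0.934, and 0 members had an unadjusted p under 0.05. With total reads in place of TMM, 1 member had an unadjusted p under 0.05 by this edgeR test, and the lowest adjusted p was 0.768. Over all miRNAs, 2 of 251 (0.797%) were called for iron, and 13 had an unadjusted p under 0.05. For dorsal against ventral no member was called either, with 0 unadjusted p under 0.05 and a lowest adjusted p of 0.996 by the same edgeR test, beside 3 of 251 (1.2%) called. DESeq2 and limma also called 0 members for both terms. The model has 1 residual degree of freedom, and any difference of the iron ratio between the regions counts as residual spread. Dorsal and ventral tissue came from the same groups of piglets, but whether every piglet entered each pool is not stated. These p-values therefore measure the spread between libraries and not among piglets. An average over regions also cancels opposite differences, as those of miR-363, and does not show that the family is alike in the groups.

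The conserved table gave a second reading of the same libraries, in which all listed sequences that share bases 2 to 16 with a member were summed. The scaling of the annotated table was kept at first. For the 9 members or pairs read this way, the log2 ratio of iron over control differed from the annotated table by -0.12 to 0.03, and 16 of 18 values had the same sign. In the conserved table miR-363 was 1.68-fold higher in iron dorsal than in control dorsal (1.65 to 1.72) and miR-19a 1.84-fold lower (1.73 to 1.96). miR-18a, together with miR-18b, was 1.55-fold lower (1.44 to 1.67). Scaled to the totals of the conserved table itself, miR-363 was 1.52-fold higher (1.49 to 1.55), close to the threshold. On that scale miR-19a was 2.03-fold lower (1.91 to 2.16) and miR-18a with miR-18b 1.71-fold lower (1.59 to 1.85). miR-19b was then 1.56-fold lower (1.53 to 1.59), past the threshold. Since both tables were made from the same reads, this bears on counting and not on the difference between piglets.

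The miR-106b-25 cluster has 3 guide strands, of which miR-106b-5p and miR-93-5p carry the miR-17 seed and miR-25-3p the miR-92 seed. Their rows do not list pig among the species, so the sequences are those listed for other mammals.
miR-106b-5p: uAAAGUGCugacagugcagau
miR-93-5p: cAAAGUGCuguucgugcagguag
miR-25-3p: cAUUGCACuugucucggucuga
From miR-20a, miR-106b-5p differs by U10G, U12C and G20A, and from miR-92a, miR-25-3p differs by U1C, C14U, C18U and U22A. Sums over sequences with shared bases 2 to 16 therefore do not mix these miRNAs with the annotated members.

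With the scaling of the annotated table, miR-106b-5p had 946 CPM in iron dorsal against 1377 in control dorsal, and 1458 in iron ventral against 1246 in control ventral. It was low in iron dorsal alone: 1.46-fold lower than control dorsal (1.42 to 1.49), under the threshold, and 1.54-fold lower than iron ventral (1.503 to 1.58). Scaled to the totals of the conserved table itself it was 1.61-fold lower in iron dorsal than in control dorsal (1.57 to 1.65), past the threshold. miR-93-5p had 1067 CPM in iron dorsal against 820.2 in control dorsal, and 915 in iron ventral against 845 in control ventral. It was thus highest in iron dorsal, 1.30 times control dorsal (1.27 to 1.34), although it shares its seed and its cluster with miR-106b-5p. miR-25-3p had 549 CPM in iron dorsal against 689.9 in control dorsal, and 609.9 in iron ventral against 589.6 in control ventral. The 3 guide strands summed to 2562 CPM in iron dorsal against 2887 in control dorsal, and 2982 in iron ventral against 2680.3 in control ventral, with no ratio past the threshold.

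**Figure D4:**
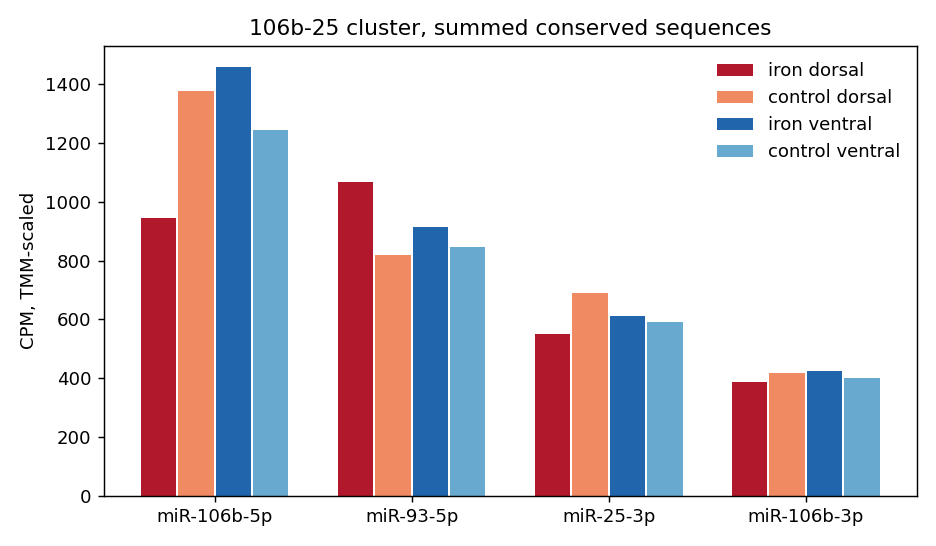
TMM-scaled CPM of the 3 guide strands of the miR-106b-25 cluster and of the passenger strand miR-106b-3p, summed over conserved sequences, 1 bar per pooled library. miR-106b-5p is lowest in iron dorsal (946 CPM) and miR-93-5p highest there (1067 CPM).

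Passenger strands give a further view of the clusters, on few reads. Unlike the others, miR-106b-3p was abundant, with 386 CPM in iron dorsal against 416 in control dorsal, and 424 in iron ventral against 399 in control ventral. miR-20a-3p had 85 reads in iron dorsal compared with 153 in control dorsal, and 143 in iron ventral against 192 in control ventral, 1.52-fold lower in iron dorsal than in control dorsal (1.16 to 2.01), while its guide miR-20a had a ratio of 1.07. miR-363-5p had 14 reads in iron dorsal and 5 in control dorsal, a ratio of 3.31 with a wide interval of 1.13 to 11.7. miR-25-5p was 1.80-fold lower in iron dorsal than in control dorsal (1.15 to 2.88), on 30 and 64 reads. miR-93-3p was 2.47-fold lower in iron ventral than in control ventral (1.62 to 3.84), on 31 and 91 reads, and 1.72-fold higher in iron dorsal than in iron ventral (1.07 to 2.81). Scaled to the totals of the conserved table itself, the latter ratio was 1.61 (0.999 to 2.63) and was not counted. The passenger strands miR-18a-3p, miR-106a-3p and miR-20b-3p were counted in no comparison.

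Because miR-19b is encoded in both clusters, its 5p arms can tell the loci apart. The 2 arms share bases 2 to 16, so for them sequences were matched over bases 2 to 20. Sequences of the 17-92 copy, miR-19b-1-5p, had 20 reads in iron dorsal compared with 47 in control dorsal, and 38 in iron ventral against 64 in control ventral. Sequences of the miR-106a-363 copy, miR-19b-2-5p, had 1 read in control dorsal and 0 in each of the other libraries. The 17-92 copy was 1.99-fold lower in iron dorsal than in control dorsal (1.15 to 3.54). The 5p arms of miR-92a, matched in the same way, had at most 4 reads in any library for the 17-92 copy and at most 2 for the miR-106a-363 copy. All of these arm sequences are those listed for other mammals.

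The 3′ ends of the members also differed between libraries. Among the conserved sequences, 10 guide strands, 9 of them annotated members and the last miR-93-5p, are listed in forms that differ by 1 base at the 3′ end. For each strand 1 pair of set length was taken, 22 and 23 bases, or 21 and 22 for miR-92a and miR-92b-3p. The measure was chosen after the data were seen. The shorter form of miR-17-5p, with 22 in place of 23 bases, made up 38.8% of both forms in iron dorsal against 27.6% in control dorsal, and 31.9% in iron ventral against 34.3% in control ventral. For miR-92a it was 12.4% in iron dorsal against 6.93% in control dorsal, and 8.79% in iron ventral against 9.42% in control ventral. The iron dorsal share was the highest of the 4 libraries in 10 of 10 pairs. It was also the highest in 271 of 502 listed pairs over all miRNAs (54.0%). The latter are pairs of any length, with those of the members among them, so these counts come from unlike sets. The median share of the shorter form over the 502 pairs was 42.0% in iron dorsal against 38.2% in control dorsal. In the ventral libraries it was 40.5% in iron ventral against 41.0% in control ventral. For miR-363 and miR-19b the dorsal shares were close, 36.9% and 52.7% in iron dorsal against 34.2% and 52.3% in control dorsal.

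**Figure D5:**
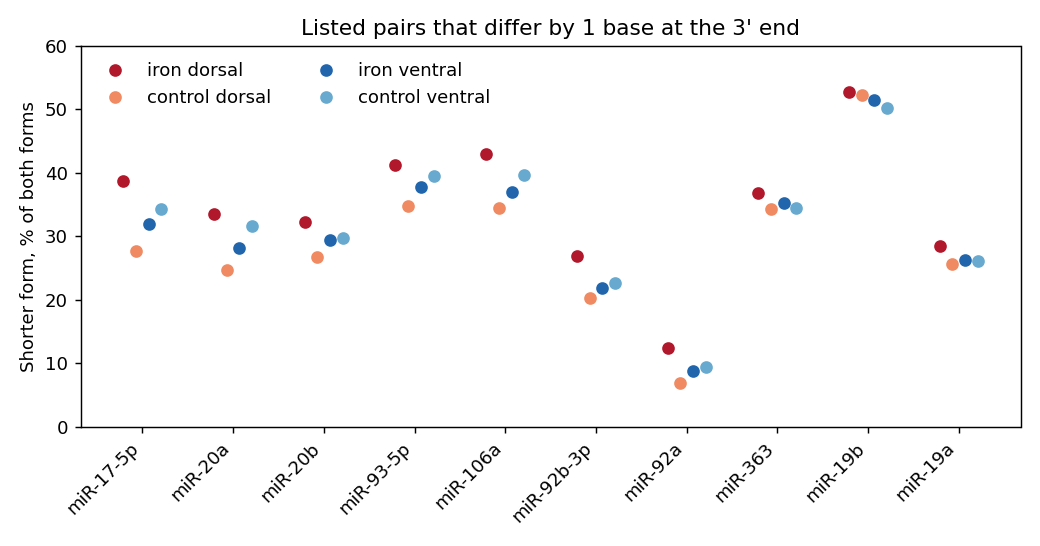
Share of the shorter of 2 listed forms (percent of both forms) for 10 guide strands, 1 point per pooled library. The iron dorsal point is the highest for each, from 12.4% for miR-92a to 52.7% for miR-19b.

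The miRNAs whose pattern was most like the summed family were miR-140-5p, miR-769-3p and miR-34a, by the distance between centred log2 profiles over 4 libraries (0.03, 0.06 and 0.07) among 238 non-members. miR-140-5p had 249 CPM in iron dorsal against 246 in control dorsal, and 260.3 in iron ventral against 256 in control ventral, as flat a profile as the sum of the family. Of the 17 miRNAs measured from the list linked to MYC, E2F or the cell cycle, 1 was higher and 1 lower in iron dorsal than in control dorsal: miR-221-5p at 1.57-fold and miR-34c at a ratio of 0.619. The same 2 were counted, in the same directions, for dorsal against ventral in the iron piglets, which shares the iron dorsal library. In iron ventral against control ventral and in control dorsal against control ventral, none of the 17 was counted. Their median log2 ratio in the dorsal iron comparison was 0.00, beside 0.01 for all miRNAs.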

How the data were processed

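The authors deposited reads per miRNA and library, per the file headers, for annotated pig miRNAs and for conserved miRNA sequences. The reads as deposited are estimated counts, since only 75.8% to 77.0% of annotated cells are exactly whole; they were rounded here. RPM values, also deposited by the authors per the file headers, served as an alternative. The submitters' processing notes name cutadapt 1.2.2 and the builds Sscrofa 10.2 and susScr 3; the sources used here do not give the aligner or counter. Rows that share their precursors, with reads equal to 0.1%, were merged (326 to 321). A further 12 columns of per-sample values were not used. A count of 0 allows up to 3 reads, 0.217 to 0.263 CPM. Libraries were scaled with TMM (edgeR 4.0.16, R 4.3.3). Intervals are exact conditional binomial (Clopper-Pearson) and cover counting error only, not the spread among animals. Amplified reads are not independent molecules, so the intervals may be too narrow even for counting error. The additive fit used edgeR, with DESeq2 1.42.0 and limma 3.58.1 as alternatives and Benjamini-Hochberg adjustment over all miRNAs. Scripts were checked on simulated data. Every member was described, since each averaged at least 10 CPM. Members, lists and tests were chosen with earlier results of these data known. Pairwise comparisons share libraries.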

Additional observations from a re-analysis of the deposited data

Results flagged for a closer look

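The iron difference of 4 of the 13 members pointed in opposite directions in dorsal and ventral hippocampus, each with an interval that excluded 1. How many of all 251 measured miRNAs do the same was not counted, so this is not shown to be particular to the family. With many reads the interval excludes 1 at small differences too. For miR-363 the log2 ratio of iron over control was 0.78 in dorsal and -0.15 in ventral, a dorsal-minus-ventral difference of 0.925. For miR-19b it was -0.42 in dorsal and 0.12 in ventral, a difference of -0.543; with total reads without miR-9 as the scaling its ventral ratio was -0.01, so the opposite direction was lost. For miR-17-5p it was -0.08 in dorsal and 0.18 in ventral, a difference of -0.2655. For miR-106a it was 0.14 in dorsal and -0.11 in ventral, a difference of 0.2545; with total reads its dorsal ratio was -0.01, and the opposite direction was lost. With 1 library per group none of these differences between the regions was tested.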

How the results depend on the processing

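With a 2-fold threshold the 4 members counted in the dorsal iron comparison became 0, and the 2 counted for dorsal against ventral in iron piglets became 0, since no member reached 2-fold. Of all 251 miRNAs, 3 were then higher and 0 lower in the former comparison, and 1 higher and 1 lower in the latter. In the conserved table, where 4 families summed by name take the place of members and the totals of that table set the scale, 2 and 1 were counted. With the scaling of the annotated table, an alternative chosen after seeing the data, 1 and 0 families were counted. With total reads without miR-9 as the scaling, 1 member (miR-363, lower) was counted for control dorsal against control ventral in place of 0. Of all 251 miRNAs, 4 were higher and 14 lower there. The same scaling gave 6 members in the dorsal iron comparison, adding miR-19b and miR-92b-5p, beside 5 higher and 30 lower of all miRNAs. The median log2 ratio of all miRNAs was then -0.17. For dorsal against ventral in iron piglets it gave 3 members, beside 3 higher and 24 lower of all miRNAs. The added member was miR-19b, as with total reads. The mean share of the family over the 4 libraries was 1.46% of annotated reads, 1.03% by the authors' RPM, 1.06% with rows not merged and 1.80% without miR-9, because the denominators differ. No direction of a counted member turned under the alternatives tried. The additive fit was run with total reads, DESeq2 size factors, no minimum, a minimum of 100 CPM and rows not merged, and by DESeq2 and limma. It called 0 members in each of these. It was not run without miR-9, with the authors' RPM or on the conserved sequences. The additive fit compared the regions with the treatment, and so the group of piglets, as a block. For iron against control no paired analysis was possible because iron and control tissue came from different piglets. Counting intervals are wide for miR-18b, miR-92b-5p, miR-17-3p and the passenger strands. The spread between piglets was not measured.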
